A study of Mus musculus with 35 samples.

Results

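Hemogenic endothelium (HE) and endothelial cells (EC) of mouse embryos at embryonic day 8.5 (E8.5) were compared by ATAC-seq over every accessible region of the deposited table. The comparison used the 4 HE and the 4 EC libraries of that day, 8 of the 35 libraries of the study, taken by their titles. Both populations were sorted from tissue labelled PAS+VU of embryos whose genotype is given as 23GFP transgenic. The labels used here do not give the promoter that drives the transgene or the markers of the sort, and both populations carry the same genotype label. A library came from 1500 sorted cells and 13 cycles of PCR. Later populations of the same study served only to sort regions into classes or to follow them over time: EC and HE at E9.5 and E10.5, cells labelled pro-HSC/HPC at E9.5, and at E10.5 also pre-HSC I cells and pre-HSC II cells, as the labels name them. HSC stands for hematopoietic stem cell and HPC for hematopoietic progenitor cell. All of these carry the same transgene label. The tissue is labelled AGM+VU at E10.5, and the E9.5 samples carry the tissue label of E8.5, so their day was taken from the titles.

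Hemogenic endothelium is the small subset of embryonic endothelium from which blood cells bud. Before a cell leaves the vessel wall it still has endothelial shape and expresses endothelial genes, and it passes through this state on the way to a blood progenitor. ATAC-seq uses a transposase that cuts and tags open chromatin, so the read count of a region follows its accessibility. Open regions include promoters, and the many distal elements such as enhancers that set which genes a cell type can use.

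The table held counts for 76018 regions (peaks) on mouse genome build mm9, of which 67131 had enough counts to test. The 8887 others were left out. A peak is named here by its mm9 position as the table writes it. The table carries no gene names and no annotation of mm9 was used, so neither the gene near a peak nor marker genes of the 2 cell types are given, and the cell type labels were not checked against markers. Total counts were 1247435, 1004036, 2666067 and 2788837 in EC libraries 1 to 4 and 1634087, 1502905, 5657077 and 5733154 in HE libraries 1 to 4. Libraries 1 and 2 were therefore the shallow ones in both populations, and within libraries 1 and 2 as within libraries 3 and 4 the EC libraries were shallower than the HE libraries. The share of peaks with no count ran from 1.48% in HE library 4 to 11.2% in EC library 2. Among counts from 10 to 49, 55.4% to 73.1% were even, and the share was higher in the shallow libraries. The reads carry no molecular identifiers, so the counting intervals and bounds given below cover counting error at most. The series' design text says that biological replicates are included, but not whether the pools stem from separate litters. A p-value here thus reflects how far these libraries vary. In a principal component analysis of the 8 libraries the first component, with 29.7% of the variance, had all 4 EC libraries at negative and all 4 HE libraries at positive values. On the second, with 19.2%, EC library 1 lay at 147 and EC library 2 at -159, with the other 6 libraries between -35.8 and 40.7.

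Most regions that differed were more accessible in HE. By the quasi-likelihood test of edgeR, with p adjusted after Benjamini-Hochberg and a threshold of 0.05, 871 peaks (1.30% of those tested) were called higher in HE and 88 (0.131%) lower, 1.43% in all. The median log2 fold change of HE over EC was 1.80 in the higher peaks, -2.00 in the lower ones and 0.02 over all tested peaks. The median level of the higher peaks was 6.60 CPM (counts scaled to library depth, with TMM factors) in EC and 23.7 CPM in HE, and that of the lower peaks 16.6 CPM in EC and 4.21 CPM in HE. A change of at least 4-fold was fitted at 323 of the 871 higher and 44 of the 88 lower peaks. The libraries of the 2 populations did not overlap at 840 of the 871 higher and 80 of the 88 lower peaks. Over all tested peaks, every HE library lay above every EC library at 7.59% and below at 4.33%. The spread in this fit came from all 9 groups of the study. In a fit of the 8 E8.5 libraries alone 1975 peaks were called higher and 998 lower, so that 66.4% instead of 90.8% of the calls were higher, and DESeq2 called 1969 higher and 349 lower. Leaving out any 1 of the 8 libraries left between 437 and 660 calls, as given library by library in the closing section.

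The 12 leading peaks higher in HE, by adjusted p, were each called in all 8 fits that left out 1 library. Their choice on the same 8 libraries, by smallest adjusted p and without overlap between populations, favours this. At chr11:106397142-106398275, a region of 1133 bp, EC libraries 1 to 4 gave 5.76, 1.74, 6.06 and 3.54 CPM and HE libraries 1 to 4 gave 31.3, 25.9, 46.2 and 47.8 CPM. The log2 fold change was 3.10 ± 0.40 (SE) with an adjusted p = 1.55e-06 by edgeR. All HE libraries lay above all EC libraries, and within HE libraries 3 and 4 were the higher ones. chr13:41440298-41441870 was similar, with 5.76, 1.74, 8.72 and 4.61 CPM in EC and 28.9, 32.4, 42.0 and 54.2 CPM in HE (log2 fold change 2.83 ± 0.36 (SE) with an adjusted p = 1.55e-06, edgeR). At chr14:77093255-77094536, EC gave 2.16, 3.49, 1.52 and 3.54 CPM and HE 23.5, 14.3, 31.5 and 25.6 CPM (log2 fold change 3.18 ± 0.41 (SE) with an adjusted p = 1.55e-06, edgeR). These 3 regions were among the least accessible of the leading peaks in EC, with 21 to 46 counts summed over the 4 EC libraries.

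The next 3 were more accessible in EC. chr11:24126489-24127811 gave 11.5, 14.0, 18.9 and 20.6 CPM in EC and 92.7, 42.8, 78.6 and 78.9 CPM in HE, which is a log2 fold change of 2.13 ± 0.28 (SE) with an adjusted p = 1.55e-06 (edgeR). chr14:104284041-104285244 gave 21.6, 12.2, 7.58 and 21.3 CPM in EC and 82.5, 87.5, 83.1 and 71.2 CPM in HE, which is a log2 fold change of 2.37 ± 0.31 (SE) with an adjusted p = 2.05e-06 (edgeR). chr10:74826194-74828242 gave 13.0, 12.2, 12.9 and 19.1 CPM in EC and 48.2, 54.4, 57.1 and 68.4 CPM in HE, which is a log2 fold change of 1.97 ± 0.26 (SE) with an adjusted p = 2.05e-06 (edgeR). In all 3 the lowest HE library was above the highest EC library. HE library 2, at 42.8 CPM in the first of them, came closest. The other 6 leading peaks lay at chr2:115135488-115136718, chr8:47973663-47974596, chr3:115471276-115472499, chr18:60820717-60821920, chr3:79797791-79798787 and chr13:81490097-81491849, with log2 fold changes from 2.10 to 2.59 and no overlap between populations.

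**Figure D1:**
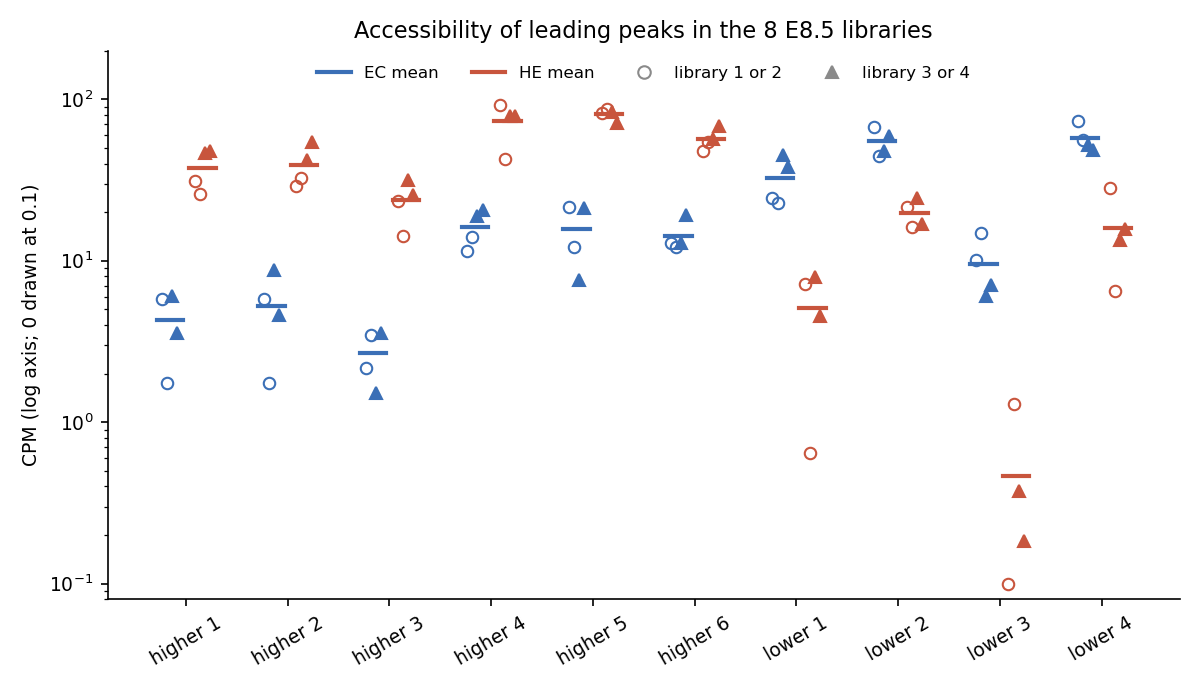
Accessibility in CPM (log axis, 0 drawn at 0.1) of the 6 leading peaks higher and the 4 leading peaks lower in E8.5 HE, in the order of the text. Each symbol is 1 library (open circles libraries 1 and 2, filled triangles libraries 3 and 4) and each bar the mean of 4 libraries: the HE libraries lie above all EC libraries in the higher and below them in the lower peaks, which the choice of peaks without overlap between populations sets.

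The peaks that were less accessible in HE were fewer. chr18:65279465-65279634, of 169 bp, gave 24.5, 22.7, 45.5 and 37.9 CPM in EC and 7.22, 0.648, 7.92 and 4.57 CPM in HE, which is a log2 fold change of -2.61 ± 0.46 (SE) with an adjusted p = 5.98e-04 (edgeR). The 1 count of HE library 2 was the lowest value. chr15:102828384-102830701, a broad region of 2317 bp, was open in both, with 67.7, 44.5, 48.1 and 59.2 CPM in EC and 21.7, 16.2, 24.3 and 16.8 CPM in HE (log2 fold change -1.46 ± 0.29 (SE) with an adjusted p = 0.00211, edgeR). chr13:74880693-74881014 was close to closed in HE, with 10.1, 14.8, 6.06 and 7.09 CPM in EC and 0, 1.30, 0.377 and 0.183 CPM in HE, 67 against 5 counts in sum (log2 fold change -4.46 ± 0.89 (SE) with an adjusted p = 0.00255, edgeR). chr10:106708183-106710202 gave 73.4, 55.8, 52.3 and 48.6 CPM in EC and 28.3, 6.48, 13.4 and 15.7 CPM in HE (log2 fold change -1.85 ± 0.40 (SE) with an adjusted p = 0.00551, edgeR). The other leading lower peaks were chr10:84488718-84489077, chr16:96156950-96157715, chr16:63451975-63452616 and chr18:89937896-89939459. Of the 8 leading lower peaks, 5 kept their call whichever library was left out. chr10:84488718-84489077 was not called without EC library 3 (adjusted p = 0.0813, edgeR), chr16:63451975-63452616 not without EC library 1 (adjusted p = 0.116, edgeR), and chr16:96156950-96157715 not without EC library 4 or HE library 3 (highest adjusted p = 0.0637, edgeR).

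A few regions were detected in 1 population alone. Of the 871 higher peaks 16 had no count in any EC library, and of the 88 lower peaks 4 had none in any HE library. Over all 67131 tested peaks 210 had no count in EC and 104 had none in HE. The EC libraries were shallower within libraries 1 and 2 and within libraries 3 and 4, so a count of 0 is easier to reach in EC. chr2:60964092-60964645 had 0 counts in EC and 4.82, 3.89, 6.03 and 3.11 CPM in HE, which is at least 12.01-fold higher when EC is set to 3 counts over the group. chr6:84627768-84628079 had 0 counts in EC and 4.21, 5.18, 1.70 and 5.12 CPM in HE, at least 9.92-fold higher. A pair of peaks on chromosome X had 2 or 3 counts in EC. chrX:22813753-22814741 had 3 counts in EC and 98 in HE, a ratio of depth-scaled counts of 18.7 (95% exact counting interval 6.21 to 92.2). chrX:68064148-68064638 had 2 counts in EC and 85 in HE, a ratio of 24.3 (6.53 to 204). These intervals, and the bounds at peaks with 0 counts, treat single counts as independent, which the excess of even counts puts in doubt. At chr14:38974565-38975108 there were 3 counts in EC and 99 in HE. These 5 peaks kept their call whichever library was left out. They were the 5 of smallest adjusted p among 41 higher peaks with 3 counts or fewer in EC, which favours this.

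None of the reverse cases kept its call in all of these fits. These were all 5 lower peaks with 3 counts or fewer in HE, with no choice by adjusted p. The stability of the 2 sets can therefore not be compared. chr2:109350850-109351160 gave 7.20, 11.3, 2.27 and 1.06 CPM in EC and 0 counts in HE, at least 18.6-fold lower in HE with HE set to 3 counts over the group. chr10:72330571-72330921 gave 4.32, 10.47, 5.31 and 0 CPM in EC and 0 counts in HE, also at least 18.6-fold lower, and its EC library 4 overlapped with HE at 0. chr18:81649736-81650003 had 57 counts in EC and 2 in HE, a ratio of 49.8 (95% exact counting interval 13.2 to 421). chr1:169314347-169314673, with 5.04, 5.23, 1.52 and 0.354 CPM in EC and 0 counts in HE, was at least 10.49-fold lower, and chr9:103610869-103611264, with counts in EC libraries 2 and 4 only, at least 7.57-fold lower. Each of these 5 lost its call when HE library 3 or HE library 4 was left out. EC library 1 did so at 1 of them, EC library 2 at 4, EC library 3 at 1, HE library 1 at 4 and HE library 2 at 3. The peak chr18:81649736-81650003 was not tested without EC library 1, 2 or 4, and those fits are not counted as a loss.

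To see which kinds of region lie behind the difference, peaks were sorted by libraries that took no part in it. A peak was put in the endothelial-higher class where its accessibility was lower in E9.5 pro-HSC/HPC than in E9.5 EC, and in the blood-higher class where it was higher, at an adjusted p under 0.05 by edgeR. The classes share with the E8.5 test the count filter and the estimate of the spread, but no library. They held 4568 (6.80%) and 3364 (5.01%) of the tested peaks. Peaks that were higher in E8.5 HE lay in the endothelial-higher class more often than tested peaks did: 239 of its 4568 peaks (5.23%) were called higher against 1.30% of all tested peaks, and 1 was called lower. They made up 27.4% of the 871 higher peaks. The blood-higher class held 57 of the higher peaks, 6.54% of them and 1.69% of the class, and 6 of the lower ones, where the class made up 5.01% of tested peaks. Without EC library 3 its share of the higher list fell to 3.14% (14 of 446 peaks), below the 4.46% that the class then made up of tested peaks, while the endothelial-higher share was 35.0%. Without libraries 1 and 2 of both populations the list shrank to 17 higher peaks, of which 3 were endothelial-higher and 5 blood-higher. The remaining 59199 peaks, 88.2% of those tested, held 575 higher peaks (0.971% of them) and 81 of the 88 lower ones (92.0%). The median log2 fold change at E8.5 was 0.46 over the whole endothelial-higher class, -0.08 over the blood-higher class and -0.01 over the rest.

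The classes drawn at E10.5, from pre-HSC II against EC, were larger. There the endothelial-higher class held 10845 peaks (16.2% of those tested) and 516 of the 871 peaks higher in E8.5 HE, 59.2% of them. The blood-higher class held 6138 peaks (9.14%) and 25 of the higher peaks, 2.87% of them. Of the 88 lower peaks 26 (29.5%) were blood-higher and 2 endothelial-higher. Of the 12 leading higher peaks 10 were endothelial-higher and 0 blood-higher by these classes, whereas by the classes of E9.5 1 was endothelial-higher and 3 were blood-higher. Of the 8 leading lower peaks 0 were endothelial-higher and 4 blood-higher by the classes of E10.5, and 1 and 0 by those of E9.5. The class thus depended on the comparison that drew it, in which the day and the blood population changed together. Both chr14:77093255-77094536 and chr18:60820717-60821920 were blood-higher by pro-HSC/HPC at E9.5 and endothelial-higher by pre-HSC II at E10.5. Of 26 tested peaks with that pair of classes 6 (23.1%) were called higher in E8.5 HE, against 1.30% of all tested peaks. That pair of classes was picked for the 2 named peaks, which are among the 6, so the share says little by itself. In E10.5 pre-HSC I the 2 named peaks had 58.1 and 39.5 CPM. They had 45.0 and 32.1 CPM in E10.5 EC and 17.5 and 1.99 CPM in pre-HSC II. Whether the day or the population sets the class was not tested. Peaks in neither class on either day numbered 47573, 70.9% of those tested. Of them 273 (0.574%) were higher in E8.5 HE, 31.3% of the higher list.

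Accessibility itself differed between the classes, so each class was also read within quintiles of the tested peaks by mean CPM over all groups. Calls were more frequent among the more accessible peaks, with 0.0819% of the lowest and 3.14% of the highest quintile called higher. In the highest quintile 9.93% of the endothelial-higher, 7.42% of the blood-higher and 1.89% of the other peaks were called higher in E8.5 HE. In the next quintile down the shares were 2.59%, 3.41% and 2.169%, and the blood-higher class there stood above the endothelial-higher one. The median log2 fold change of the endothelial-higher peaks lay between 0.34 and 0.49 in every quintile, while that of the blood-higher peaks lay between -0.27 and 0.08.

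**Figure D2:**
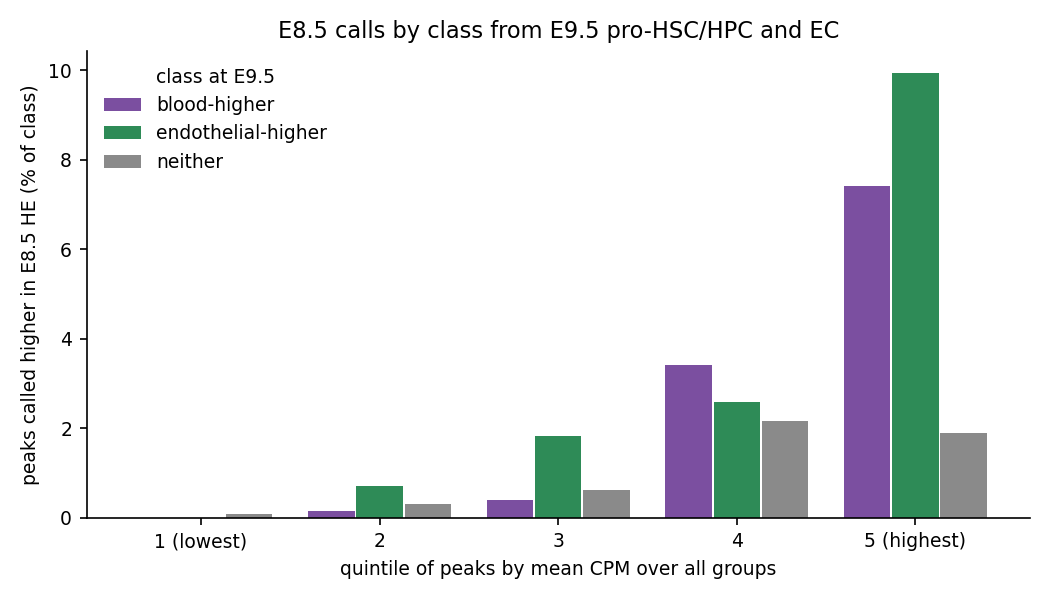
Share of peaks called higher in E8.5 HE (% of the peaks of the class, bars from 0) by class at E9.5, in quintiles of the tested peaks by mean CPM. In the highest quintile 9.93% of the endothelial-higher, 7.42% of the blood-higher and 1.89% of the other peaks were called, and in the lowest quintile 0 peaks of the first 2 classes were.

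The classes were also read in the counts of each library, without any call at E8.5. The endothelial-higher peaks of E9.5 took 9.35%, 9.33%, 10.3% and 10.2% of the counts of EC libraries 1 to 4 and 12.8%, 13.1%, 12.2% and 12.2% of those of HE libraries 1 to 4. All HE libraries lay above all EC libraries, in libraries 1 and 2 as in libraries 3 and 4. The means were 9.81% ± 0.550 (SD, n = 4) in EC and 12.6% ± 0.457 (SD, n = 4) in HE, a difference of 2.77 percentage points. In a two-sided exact permutation test p was 0.0286, the smallest that 4 against 4 libraries can give, and 0.171 after Benjamini-Hochberg adjustment over the 6 shares tested, so it did not pass the correction. The blood-higher peaks took 2.59% ± 0.291 (SD, n = 4) in EC and 2.40% ± 0.251 (SD, n = 4) in HE, which overlapped over the 8 libraries (exact permutation p = 0.371). Within libraries 1 and 2 and within libraries 3 and 4 both HE libraries lay below both EC libraries. With the classes of E10.5, the endothelial-higher share was 31.2%, 30.4%, 35.7% and 34.9% in EC and 36.3%, 36.9%, 40.0% and 39.8% in HE, again without overlap. The blood-higher share of E10.5 was 4.92%, 5.21%, 3.93% and 4.17% in EC and 4.19%, 4.11%, 3.25% and 3.24% in HE. It was also lower in HE within libraries 1 and 2 and within libraries 3 and 4, while the 8 libraries together overlapped (exact permutation p = 0.143). In bulk pools such as these, a mix of cells in other proportions and a change within each cell cannot be told apart.

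**Figure D3:**
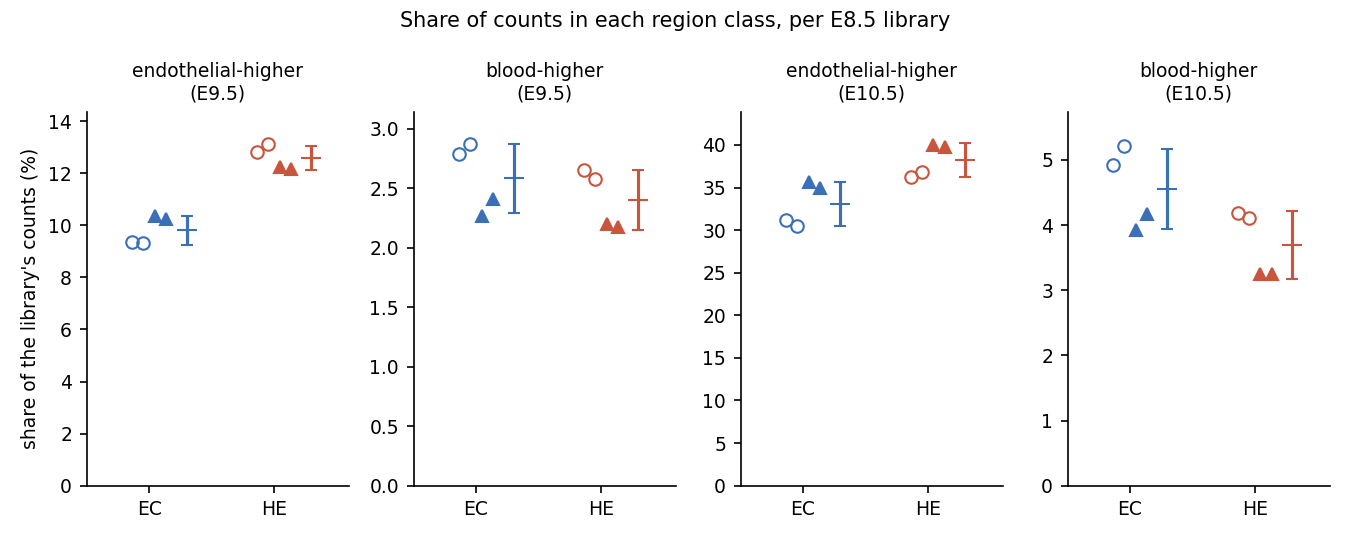
Share of a library's counts (%, axes from 0) in peaks of 4 classes, for the 4 EC and 4 HE libraries of E8.5. Open circles are libraries 1 and 2, filled triangles libraries 3 and 4, and the bars give mean and SD: the endothelial-higher shares of E9.5 are 9.33% to 10.3% in EC and 12.2% to 13.1% in HE.

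Other properties of the regions separated the populations less. Called peaks were wide, with a median of 891 bp in the higher and 810 bp in the lower list against 547 bp over all tested peaks. Peaks from 1000 to under 2000 bp were called higher most often, at 2.64%, against 1.13% of those of 2000 bp or more and 0.139% of those under 300 bp. Wider peaks were also more accessible, with a median in HE of 2.40 CPM under 300 bp and 76.3 CPM at 2000 bp or more. The median log2 fold change lay between -0.10 and 0.10 in every width class. Calls were more frequent among the more accessible peaks, and width was not read within levels of accessibility. Over chromosomes the share called higher ran from 0.875% on chromosome 4 to 2.25% on chromosome 13, with 1.078% on chromosome X and 0 of 9 peaks on chromosome Y. The shares of counts in broad peaks (2000 bp or more), on chromosome X, on chromosome Y and in the tenth of peaks with the most counts overlapped between the populations over the 8 libraries (exact permutation p from 0.314 to 0.629). Within libraries 1 and 2 and within libraries 3 and 4 the last of these shares was higher in both HE libraries, at 52.2% and 52.5% against 50.6% and 49.5%, and at 55.8% and 55.3% against 55.1% and 53.6%. With 2 libraries a side no exact test could pass the threshold there.

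Some of the called peaks lay close together. When called peaks of the same direction less than 50 kb apart were joined, the 871 higher peaks formed 744 loci, 101 of which held at least 2 and together 228 called peaks. The 88 lower peaks formed 86 loci, of which 2 held 2 peaks each. The lists differ in size, and how often as many peaks drawn from all tested peaks would lie this close was not tested. The 2 lists can therefore not be compared in this. The locus with the most called peaks was chr11:110412569-110470314, with 5 of its 7 tested peaks called higher and positive fold changes in all 7. Its first peak, chr11:110412569-110413854, gave 31.7, 31.4, 28.8 and 31.2 CPM in EC and 91.5, 112, 68.8 and 91.3 CPM in HE (log2 fold change 1.56 ± 0.35 (SE) with an adjusted p = 0.00932, edgeR). Its second, chr11:110417473-110417895, was close to closed in EC, with 0.720, 0, 1.52 and 2.48 CPM, and gave 8.43, 20.7, 12.4 and 13.2 CPM in HE. Of its 5 called peaks 3 were endothelial-higher by the classes of E9.5 and 4 by those of E10.5.

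The compact locus chr6:116584973-116600929 had all 4 of its tested peaks called higher. chr6:116593938-116594806 gave 10.1, 6.98, 4.55 and 9.93 CPM in EC and 26.5, 33.7, 26.01 and 20.1 CPM in HE (log2 fold change 1.74 ± 0.38 (SE) with an adjusted p = 0.00646, edgeR), and chr6:116600015-116600929 gave 2.88, 8.72, 3.79 and 4.25 and 20.5, 24.6, 16.4 and 18.5 CPM (log2 fold change 2.07 ± 0.45 (SE) with an adjusted p = 0.00635, edgeR). At chr3:8639477-8724676, 4 of 11 peaks were called higher and all 11 had positive fold changes. chr3:8684822-8686020 led that locus with 25.9, 19.2, 21.6 and 31.5 CPM in EC and 81.3, 71.9, 72.8 and 75.2 CPM in HE (log2 fold change 1.5966 ± 0.28 (SE) with an adjusted p = 4.66e-04, edgeR). The longest row of tested peaks was at chr9:32337089-32421344, where 4 of 17 were called, 15 were positive, and uncalled peaks lay between called ones. chr9:32401906-32403775 gave 13.0, 5.23, 11.4 and 19.9 CPM in EC and 33.7, 28.5, 42.2 and 36.4 CPM in HE there. At chr13:42621345-42688808 4 of 8 and at chr18:69687560-69746423 4 of 9 peaks were called. Endothelial-higher by the classes of E10.5 were all 4 called peaks at each of the loci on chromosomes 9, 13 and 18 and 2 of 4 at each of those on chromosomes 3 and 6. By the classes of E9.5 these were 1, 0 and 3 of 4 on chromosomes 9, 13 and 18, and 0 and 2 of 4 on chromosomes 3 and 6.

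None of the 6 loci held a peak called lower. All 25 called peaks of these loci had positive fold changes in both pairs of libraries, as had all 871 higher peaks. Their choice on all 8 libraries favours this. Most of the 25 lay near the threshold, and 4 of the 25 kept their call whichever library was left out. The calls lost were 18 without EC library 1, 15 without EC library 2, 11 each without EC library 3 and EC library 4, 8 without HE library 1, 7 without HE library 2 and 13 each without HE library 3 and HE library 4. The peaks that kept it were chr11:110412569-110413854, chr3:8684822-8686020, chr3:8723533-8724676 and chr6:116600015-116600929.

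**Figure D4:**
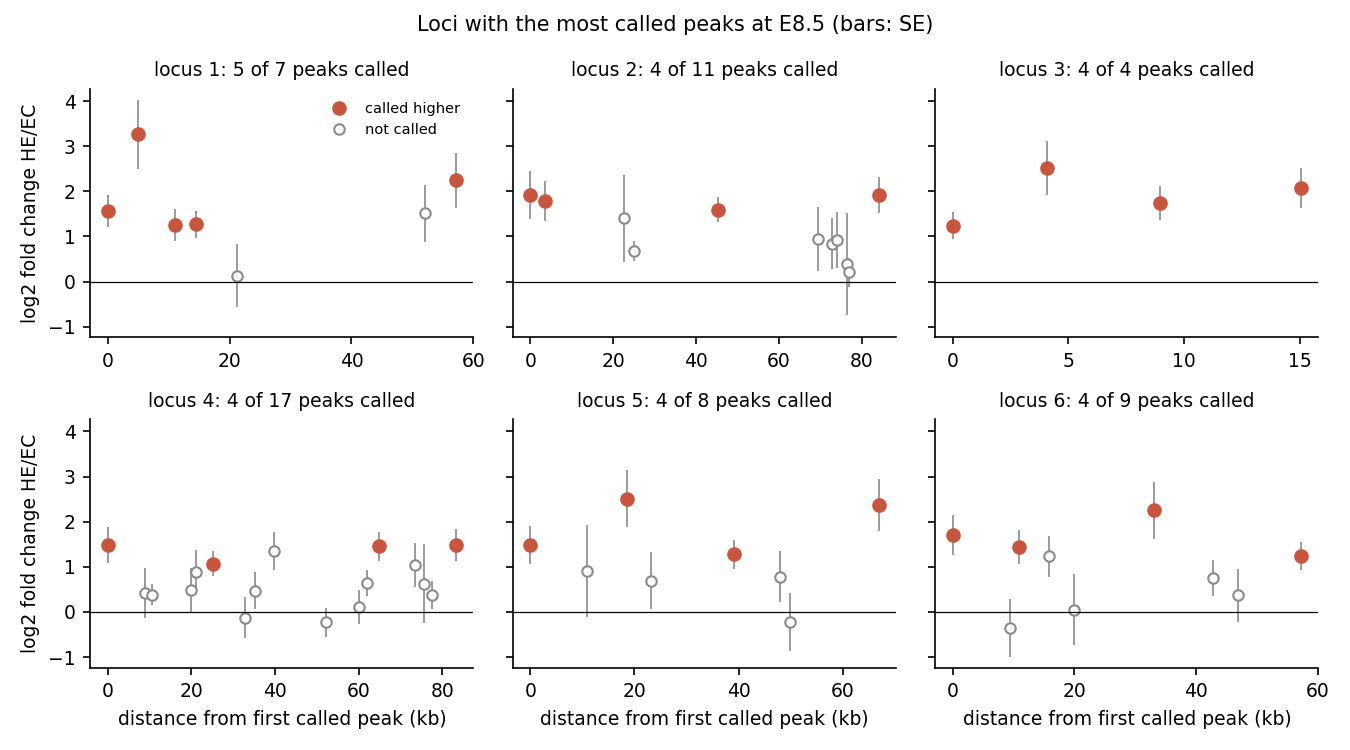
Log2 fold change of HE over EC (points, bars SE) of every tested peak in the 6 loci with the most called peaks, by distance in kb from the locus's first called peak. Filled points were called higher; locus 1 is on chromosome 11, 2 on 3, 3 on 6, 4 on 9, 5 on 13 and 6 on 18, and 5 of 7, 4 of 11, 4 of 4, 4 of 17, 4 of 8 and 4 of 9 peaks were called.

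The shallow libraries 1 and 2 and the deeper libraries 3 and 4 were then read apart, as 2 comparisons of 2 HE with 2 EC libraries that share no library. Libraries 1 and 2 called 157 peaks higher (0.234% of tested peaks) and 8 lower (0.0119%), 0.246% in all, by edgeR. Libraries 3 and 4 called 35 higher (0.0521%) and 1 lower (0.00149%), 0.0536% in all. At an unadjusted p under 0.05 the shares in either direction were 11.1% and 6.81%. By adjusted p, 12 peaks were called in both pairs, all in the same direction, and all 12 were among the 959. No peak had a called difference between the pairs. The test of that difference by edgeR had an unadjusted p under 0.05 at 2455 peaks (3.66%), and DESeq2 called 0 as well. With 2 libraries a side a difference would have to be large to be called, so this does not show that the pairs are alike.

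The direction carried over from one pair to the other. Of the 157 peaks called higher in libraries 1 and 2, 152 were positive in libraries 3 and 4 and 99 reached an unadjusted p under 0.05 there in that direction (edgeR), against 4.62% of all tested peaks. None reached it in the opposite direction. Their median log2 fold change was 2.78 in the pair that chose them (2.75 with EC at 0 counts set to 3) and 1.30 in the other. All 35 peaks called higher in libraries 3 and 4 were positive in libraries 1 and 2 and 25 reached an unadjusted p under 0.05 (edgeR), against 7.09% of all tested peaks. Their median was 2.79 in libraries 3 and 4 and 2.30 in libraries 1 and 2. Peaks called lower did not carry over in this way: of the 8 from libraries 1 and 2, 6 were negative in the other pair and 0 reached an unadjusted p under 0.05 (edgeR), and the 1 from libraries 3 and 4 had the opposite sign. Over all tested peaks 63.8% had the same sign in both pairs, and the fold changes of the pairs correlated across peaks at r = 0.3003 (Spearman 0.370, n = 67131), from 0.206 in the lowest to 0.593 in the highest quintile by mean CPM. Peaks are not independent replicates, and these points share their libraries. The shares of all tested peaks given above are not matched for accessibility.

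Fold changes were on the whole larger in libraries 1 and 2. Each of the 871 higher peaks was positive and each of the 88 lower ones negative in both pairs, which their choice on all 8 libraries favours. The median of the higher list was 2.01 in libraries 1 and 2 and 1.64 in libraries 3 and 4, and 599 of the 871 were larger in libraries 1 and 2. With a population that had 0 counts in a pair set to 3 counts over its 2 libraries, the medians were 1.94 and 1.64 and the number was 563. The endothelial-higher class, chosen on other libraries, had a median of 0.62 in libraries 1 and 2 and 0.35 in libraries 3 and 4. Of the 157 peaks called higher in libraries 1 and 2, 28 had 0 counts in both shallow EC libraries and 0 had none in both deeper ones, and of the 35 called in libraries 3 and 4, 5 had 0 counts in both deeper EC libraries. With all 8 libraries thinned to the lowest E8.5 total, libraries 1 and 2 called 89 peaks and libraries 3 and 4 called 3. With 1 library of a pair left out 0 to 8 calls were left in libraries 1 and 2 and 0 to 7 in libraries 3 and 4. Within a population, libraries 1 and 2 correlated at 0.746 to 0.822 and libraries 3 and 4 at 0.876 to 0.940 (Pearson, log2 CPM over peaks). After thinning to a common total the values were 0.794 to 0.841 and 0.860 to 0.889.

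**Figure D5:**
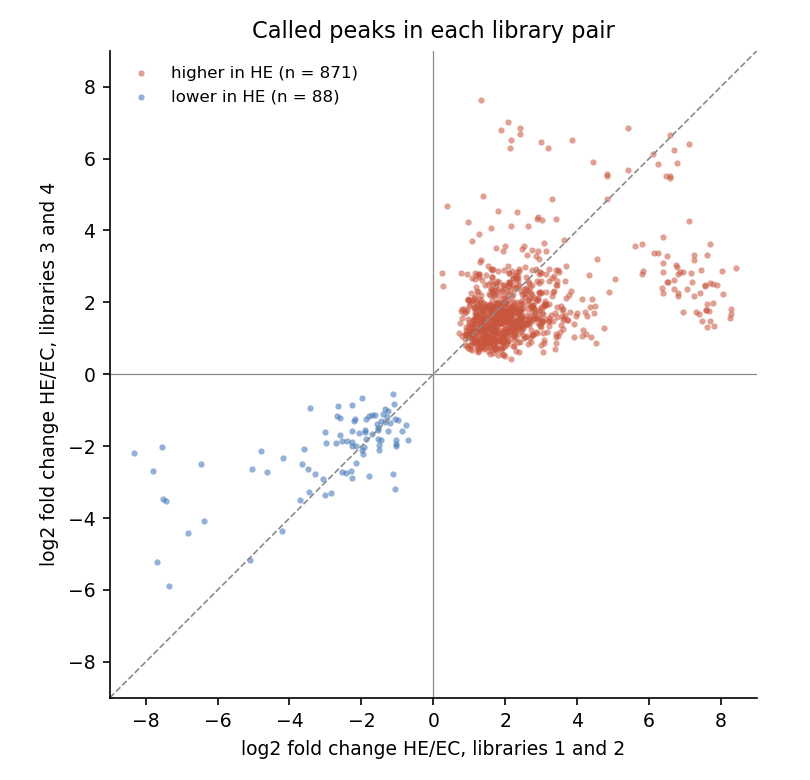
Log2 fold change of HE over EC of the 871 peaks called higher and the 88 called lower in all 8 libraries, from libraries 1 and 2 (horizontal) and from libraries 3 and 4 (vertical). All points share their sign in both pairs, which the choice on all libraries favours; the 81 points beyond 5 on the horizontal and the 27 on the vertical axis have at most 1 count in EC or in HE in that pair, so their size is not measured. The dashed line marks equal values.

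The leading peaks were chosen on all 8 libraries, which favours a call in each pair, so their values by pair are a description. chr11:24126489-24127811 had a log2 fold change of 2.42 ± 0.42 (SE) in libraries 1 and 2 and 1.99 ± 0.36 in libraries 3 and 4, and chr10:74826194-74828242 had 2.02 ± 0.40 and 1.96 ± 0.35. Of the 12 leading higher peaks 10 were called in libraries 1 and 2 alone and 12 in libraries 3 and 4 alone, whereas 0 of the 8 leading lower peaks were called in either. Fitted without libraries 1 and 2 of both populations, 17 peaks were called higher and 0 lower, and fitted without libraries 3 and 4, 80 were called higher and 3 lower. Of those 17, 16 were among the 871. The other was chrX:151648671-151649414, with 1.44, 3.49, 0 and 0 CPM in EC and 3.61, 6.48, 5.84 and 5.12 CPM in HE and an adjusted p of 0.0566 (edgeR) over all libraries.

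At some peaks the EC libraries of the 2 pairs disagreed. chr3:109951897-109952507 had 1.44, 5.23, 0 and 0 CPM in EC and 9.63, 6.48, 9.80 and 8.05 CPM in HE. Its log2 fold change was 1.31 in libraries 1 and 2, while in libraries 3 and 4, with 0 counts in EC, it has no measured size. chr10:76911593-76912729 gave 14.4, 8.72, 4.93 and 2.13 CPM in EC and 18.7, 9.07, 20.4 and 29.6 CPM in HE, with log2 fold changes of 0.25 in libraries 1 and 2 and 2.82 in libraries 3 and 4. Both were called over all libraries. The smallest unadjusted p for a difference between pairs, 1.57e-05 by edgeR (adjusted p = 1), belonged to chr14:12713553-12714036, which gave 2.16, 3.49, 0 and 0 CPM in EC and 0, 0, 3.77 and 1.83 CPM in HE. chr2:9793845-9794891, with 0, 0, 10.99 and 11.7 CPM in EC and 12.04, 7.78, 12.6 and 15.2 CPM in HE, shows the other form, where EC had no counts in the shallow libraries and levels near those of HE in the deeper ones. Neither of these last 2 was called over all 8 libraries.

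The higher and lower lists took different courses at later days. The median level of the higher peaks was 17.8 CPM in EC and 23.6 CPM in HE at E9.5 and 17.4 and 17.3 CPM at E10.5, while that of all tested peaks lay between 4.96 and 5.82 CPM in every group. It was 12.8 CPM in pro-HSC/HPC, 12.8 CPM in pre-HSC I and 5.49 CPM in pre-HSC II. The level of EC at E9.5 stood nearer to E8.5 HE, at 23.7 CPM, than E8.5 EC did, at 6.60 CPM. So did every other later group except pre-HSC II. The choice of these peaks by a lower level in E8.5 EC than in E8.5 HE favours this, so it shows no particular likeness of E9.5 EC to E8.5 HE. The median level of the lower peaks was 5.24 CPM in EC and 5.92 CPM in HE at E9.5, 7.56 CPM in pro-HSC/HPC, 6.98 and 9.60 CPM in EC and HE at E10.5, and 10.52 and 12.2 CPM in pre-HSC I and pre-HSC II. These medians across days were not tested, and the lists were chosen on the E8.5 libraries.

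In the HE and EC libraries of the later days, which share no library with E8.5, part of the higher list was called again. At E9.5, 119 of the 871 were called higher in HE (13.7%, against 1.36% of all tested peaks) and 13 lower (1.49%, against 1.22%), by edgeR. At E10.5, 53 were called higher (6.08%, against 0.717%) and 52 lower (5.97%, against 1.57%), so that there the list went both ways. The higher list was more accessible than the tested peaks, with 48.3% of it in the highest quintile by mean CPM. Calls at E8.5 were more frequent among the more accessible peaks, and the shares of all tested peaks given here are not matched for accessibility. None of the 88 lower peaks was called at E9.5 in either direction, and 1 was called higher at E10.5. Of the 12 leading higher peaks 7 were called higher at E9.5 and 4 at E10.5. chr11:24126489-24127811 was one of these, with 38.3 ± 13.0 CPM in EC and 139 ± 15.9 CPM in HE at E9.5 (SD, n = 4) and 35.6 ± 4.30 and 115 ± 34.3 CPM at E10.5 (SD, n = 4). chr10:74826194-74828242 was called at neither day, with 127 ± 17.1 CPM in EC and 116 ± 11.2 CPM in HE at E9.5 (SD, n = 4). Over all tested peaks the difference between HE and EC itself changed from E8.5 to E9.5 at 1.49% by edgeR's interaction test, upward at 0.282% and downward at 1.21%. The locus peak chr11:110412569-110413854 was lower in HE than in EC at both later days, with log2 fold changes of -1.21 (adjusted p = 0.0294, edgeR) at E9.5 and -1.74 (adjusted p = 0.00229, edgeR) at E10.5.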

How the data were processed

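The deposited table gives unnormalized read counts of 35 libraries in 76018 peaks. The submitters' processing notes name build mm9, DiffBind 1.14.6, MACS2 2.0.1, Bowtie 1.0.0, Trim Galore 0.3.1, bedtools 2.17.0, SAMtools and deepTools. Their roles and settings, and any shift of reads to the transposase cut, are not given in the sources used here, nor is whether positions start at 0 or 1. Groups came from sample titles. The members, classes and lists were chosen with earlier results of these data known. Peaks were filtered with filterByExpr, scaled with TMM and tested two-sided in edgeR 4.0.16 (R 4.3.3), in 1 fit of 34 samples with 25 residual degrees of freedom. Pre-HSC I libraries 2 and 3 were averaged, since their counts differed by less than sampling noise (chi-square divided by its degrees of freedom 0.461, and 2.59 to 4.19 between E8.5 libraries of a group). The pair comparisons split each E8.5 group in the same model, with 23 residual degrees of freedom. Leading peaks were the 12 higher and 8 lower ones with the smallest adjusted p, a log2 fold change of 1 or more in size and no overlap between populations, beside the peaks of the 6 largest loci, up to 5 per pair or floor rule, 3 per class, and up to 20 called without libraries 1 and 2. Alternatives were RLE, total-count and loess scaling (limma 3.58.1), DESeq2 1.42.0, no filter, only the 8 libraries, thinning to 456770 counts, a block, a library-pair term, and leaving out libraries. Thinning only the E8.5 libraries to their lowest total, and the same alternatives for the endothelial-higher share, were added after seeing the data. The tests were checked on simulated data.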

Additional observations from a re-analysis of the deposited data

Results flagged for a closer look

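In 7 of 152 group values of 4 libraries, the highest or lowest library stood apart from the other 3 by Dixon's 95% criterion. Chance alone marks about 1 group in 20. At chr10:74826194-74828242, EC library 4 gave 19.1 CPM, against 12.2 to 13.0 CPM in the other 3. At chr16:63451975-63452616, EC library 1 gave 32.4 CPM, against 8.34 to 12.2 CPM in the other 3. At chr11:110412569-110413854, EC library 3 gave 28.8 CPM, against 31.2 to 31.7 CPM in the other 3. At chr11:110426982-110428254, EC library 3 gave 60.6 CPM, against 40.3 to 43.6 CPM in the other 3. At chr3:8723533-8724676, HE library 2 gave 70.6 CPM, against 40.3 to 43.2 CPM in the other 3. At chr3:96871424-96872262, EC library 1 gave 7.20 CPM, against 0 to 0.758 CPM in the other 3. At chrX:68064148-68064638, EC library 3 gave 0.758 CPM, against 0 in the other 3.

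At 23 of the 70 named peaks the difference between HE and EC changed from E8.5 to E9.5 by edgeR's interaction test (adjusted p under 0.05), where 1.49% of all tested peaks changed. The peaks were chosen on E8.5 values that enter this change, so their share says little by itself. The difference, as log2 fold change of HE over EC, became smaller or negative at 19 of them. The change was -1.96 at chr11:106397142-106398275, -1.94 at chr13:41440298-41441870, -2.10 at chr10:74826194-74828242, -1.70 at chr2:115135488-115136718, -1.54 at chr3:115471276-115472499, -2.59 at chr11:12235826-12236780, -2.5001 at chr8:8819094-8820146, -2.77 at chr11:110412569-110413854, -2.33 at chr11:110423663-110425516, -1.94 at chr11:110426982-110428254, -2.40 at chr9:32420391-32421344, -2.74 at chr13:42639971-42640455, -1.92 at chr18:69698456-69699528, -1.89 at chr18:69744821-69746423, -2.61 at chr2:147996872-147998072, -1.80 at chr10:57816976-57817978, -4.00 at chr10:20212119-20212679, -3.69 at chrX:68064148-68064638 and -4.45 at chr14:38974565-38975108. It went up at the other 4, which were lower in HE at E8.5, by 5.33 at chr13:74880693-74881014, 2.99 at chr16:63451975-63452616, 6.86 at chr1:169314347-169314673 and 6.77 at chr9:103610869-103611264. At the last 2 of these all 4 HE libraries of E8.5 had 0 counts, so their values follow from the fit and are no measured size.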

How the results depend on the processing

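Calls in the whole comparison numbered 1074 with RLE factors, 705 with scaling by total counts (604 higher, 101 lower), 954 with loess offsets and 957 without a filter. With that scaling the overall median of the log2 fold change went from 0.02 to -0.09. DESeq2 gave 2318 calls, the 8 libraries alone 2973, thinning every library 319, thinning only the E8.5 libraries 550, leaving out libraries 1 and 2 17, and leaving out libraries 3 and 4 83. Without EC library 1, 2, 3 or 4 there were 437, 444, 487 and 660 calls, and without HE library 1, 2, 3 or 4 there were 635, 597, 477 and 574. With the 8 libraries alone a replicate block gave 3597 calls (2406 higher, 1191 lower) and a library-pair term 4488. Deviations of same-numbered EC and HE libraries from their group means correlated at 0.0298 to 0.0652. Over all EC and HE libraries the values were 0.0243 to 0.0731 within libraries 1 and 2 or within libraries 3 and 4. Across these sets they were -0.0584 to -0.0265. Same-numbered libraries thus did not stand out from the others of their set, but such small values cannot show whether the numbers pair the samples. In libraries 1 and 2 there were 253 calls with RLE, 747 with DESeq2, 1799 with the 8 libraries alone, 79 with every library and 89 with only the E8.5 libraries thinned, and 0 to 8 with 1 library left out. In libraries 3 and 4 there were 287 with DESeq2, 1060 with the 8 libraries alone, 6 and 3 with the 2 forms of thinning, and 0 to 7 with 1 library left out, where the lone library is assumed to vary like the other groups. The difference between pairs had 0 calls in all 14 alternatives run. The class shares of the higher list are set against the share of the class in the tested peaks. For the endothelial-higher class it was 31.7% against 7.16% with RLE and 33.2% against 8.76% with DESeq2. It was 33.0% against 8.45% with every library and 32.6% against 7.96% with only the E8.5 libraries thinned. Without libraries 1 and 2 it was 17.6% (3 of 17 peaks) against 6.09%, and without libraries 3 and 4 32.5% against 6.34%. With the classes of E10.5 it was 59.2% against 16.2%. With 1 library left out it was 25.3% to 35.0% against 6.92% to 7.46%. The blood-higher share was 4.71% against 3.15% with the 8 libraries alone and 3.86% against 4.27% with every library thinned. Without libraries 1 and 2 it was 29.4% (5 of 17 peaks) against 4.57%, and with the classes of E10.5 2.87% against 9.14%. With 1 library left out it was 3.14% to 7.40% against 4.28% to 4.87%. It thus stood above the share in the tested peaks in some settings and below it in others. Of the shares of a library's counts, that in broad peaks differed by 0.54 points and reversed to -0.102 without EC library 2 (-0.102 to 1.15 over the 8 libraries), and that on chromosome X differed by 0.0374 points and reversed to -0.0170 without EC library 1 (-0.0170 to 0.0932). The cause of these moves was not tested. Of the 64 named peaks that were called, none changed its sign where it had a value. The number still called was 58 with scaling by total counts, 61 with loess offsets, 56 with DESeq2 (7 others had no adjusted p), 52 with the 8 libraries alone (12 not tested), 32 with every library (22 not tested) and 44 with only the E8.5 libraries thinned (3 not tested), 16 without libraries 1 and 2 and 12 without libraries 3 and 4.

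Depth limits the shallow libraries most: 3 counts stand for 2.62 CPM in EC library 2 and 0.549 CPM in HE library 4.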
